A study of Mus musculus with 36 samples.

Results

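The genes described here build and run the machinery of cell division: 12 mitotic kinesins, 6 genes of cytokinesis, 8 of spindle assembly, 9 of condensin, topoisomerase and separase, and 4 mitotic kinases and centriole duplication genes. They were chosen by name, 39 in all. Of these, 38 had a transcript cluster (the probe set of the array that stands for a gene) of their own among 19938 genes tested. The cluster of Kifc1, a minus-end kinesin, also carries the symbol Kifc5b in the annotation, so Kifc1 was not tested.

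Bone marrow of Balb/c mice was grown for 6 days in 100 ng/ml GM-CSF, which yields dendritic cells (DCs), and RNA was hybridized to Affymetrix whole-transcript arrays. Cultures were either given 200 nM soluble human thrombomodulin (sTM) on day 4 or left untreated. Before RNA was extracted, some cultures were separated with magnetic beads into DCs with thrombomodulin on their surface (TM+ DCs) and DCs without (TM- DCs). The 36 arrays fell into 6 TM+ and 6 TM- arrays of sTM-treated cultures, 4 TM+ and 4 TM- arrays of untreated cultures, and 8 sTM-treated and 8 untreated arrays of unsorted DCs. Sorted DCs came from experiments 2, 3 and 4, and experiment 2 had no untreated sorted DCs. Unsorted DCs came from experiments 1, 2 and 3. The labels call the replicates of an experiment biological without saying whether they were separate animals, so p-values measure the spread between these arrays.

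In mitosis, kinesin motors push the spindle poles apart, slide and shorten microtubules and carry the factors of division to the spindle midzone. Condensin rings and topoisomerase II alpha compact and untangle the chromosomes, separase cuts the cohesin that holds sister chromatids together, and anillin, PRC1 and centralspindlin shape the cleavage furrow. Most of these genes are transcribed mainly in G2 and M phase, so that their RNA is scarce in cells that do not divide. Bone marrow cultures with GM-CSF hold proliferating precursors as well as DCs that have stopped dividing. In bulk RNA, fewer dividing cells and less RNA per cell cannot be told apart.

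A known feature of the promoters of such genes is the CHR element, the binding site of the DREAM and B-Myb complexes, often with CCAAT boxes for NF-Y beside it. RefSeq promoters (GRCm38.p6, 250 bases before to 50 after the start) were found for 36 of the 39 genes, 40 promoters in all. Tpx2, Smc4 and Kif20a had no entry. A CHR match (TTTGAA or TTCGAA, either strand) lay in the promoter of 30 of the 36 genes, or 83.3%, against 19.2% of all 32851 promoters. A CCAAT match on either strand lay in 24 of them, or 66.7%, against 37.4% of all promoters, and both matches in 23, or 63.9%, against 7.53%. A gene was counted here if any of its promoters matched, while the background counts promoters. Of the 40 promoters of the set, 82.5% held a CHR match, 65% a CCAAT match and 62.5% both. An E2F-like match (TTTGGCGC, TTTCCCGC, TTTGCCGC or TTTCGCGC, either strand) was found in 5 genes, or 13.9%, against 2.27%. A GGCGG with a CHR match at most 10 bases after it was found in Top2a alone, 2.78% of the genes against 0.326% of all promoters (read on either strand). With both elements read on the gene strand only, 21 and 14 of the 36 genes held CHR and CCAAT, against 11.6% and 21.1% of all promoters. The promoters below are those of genes with large sorting differences, with Nusap1 as one that held none of these letters and Ckap5 as the gene with the smallest difference. Capitals mark CHR matches (TTTGAA and TTCGAA, or TTCAAA where the element is on the other strand), CCAAT matches (ATTGG on the other strand) and E2F-like matches.
Top2a (chr11:99024140-99024439, minus strand): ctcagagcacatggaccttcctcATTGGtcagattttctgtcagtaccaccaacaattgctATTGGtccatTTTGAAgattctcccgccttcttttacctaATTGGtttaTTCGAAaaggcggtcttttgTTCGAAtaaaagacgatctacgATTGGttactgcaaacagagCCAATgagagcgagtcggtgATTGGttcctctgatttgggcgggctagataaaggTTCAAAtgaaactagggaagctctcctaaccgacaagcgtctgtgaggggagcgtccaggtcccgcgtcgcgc
Kif11 (chr19:37376282-37376431, plus strand): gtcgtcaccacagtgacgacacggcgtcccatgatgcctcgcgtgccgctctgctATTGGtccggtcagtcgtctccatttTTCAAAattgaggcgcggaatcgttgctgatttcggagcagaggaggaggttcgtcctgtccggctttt
Prc1 (chr7:80294351-80294500, plus strand): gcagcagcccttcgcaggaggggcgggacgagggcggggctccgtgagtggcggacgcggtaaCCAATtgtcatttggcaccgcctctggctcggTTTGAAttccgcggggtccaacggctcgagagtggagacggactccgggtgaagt
Hmmr (chr11:40733388-40733627, minus strand): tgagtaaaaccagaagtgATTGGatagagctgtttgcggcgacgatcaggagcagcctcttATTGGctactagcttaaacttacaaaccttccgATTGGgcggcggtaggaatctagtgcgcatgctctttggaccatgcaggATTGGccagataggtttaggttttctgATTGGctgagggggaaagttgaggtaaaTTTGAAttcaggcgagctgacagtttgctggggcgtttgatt
Plk1 (chr7:122159335-122159484, plus strand): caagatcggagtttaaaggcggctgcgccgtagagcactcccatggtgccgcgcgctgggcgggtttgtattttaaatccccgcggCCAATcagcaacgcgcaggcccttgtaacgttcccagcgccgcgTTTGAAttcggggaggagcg
Anln (chr9:22389157-22389306, minus strand): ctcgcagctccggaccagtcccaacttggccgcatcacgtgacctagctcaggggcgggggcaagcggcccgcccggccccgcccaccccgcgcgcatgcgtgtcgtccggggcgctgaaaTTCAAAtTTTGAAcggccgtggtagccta
Nusap1 (chr2:119618198-119618347, plus strand): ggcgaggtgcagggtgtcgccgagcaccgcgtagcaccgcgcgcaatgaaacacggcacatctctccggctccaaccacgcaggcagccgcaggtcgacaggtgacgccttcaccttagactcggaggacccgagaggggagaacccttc
Ckap5 (chr2:91526662-91526811, plus strand): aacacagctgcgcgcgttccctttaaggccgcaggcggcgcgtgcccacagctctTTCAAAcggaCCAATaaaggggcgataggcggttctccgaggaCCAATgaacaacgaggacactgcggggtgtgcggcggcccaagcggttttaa
Top2a held 4 CHR matches and 6 CCAAT matches, the last CHR match 23 bases before the start. In Hmmr 5 CCAAT matches preceded a CHR match 9 bases after the start, and in Anln 2 CHR matches lay side by side after the start with no CCAAT match. The genes without a CHR match were Kif18a, Cit, Nusap1, Ncaph, Plk4 and Stil. A match of letters is a description of the sequence and says nothing of what binds there.

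TM+ DCs had more RNA of the whole mitotic set than TM- DCs. All 38 genes were called higher in TM+ DCs, against 18.6% of all genes tested (limma with experiment as a random block, Benjamini-Hochberg adjusted p under 0.05 over 19938 genes). This fit took the 20 sorted arrays as its units. The sorting difference changed between experiments, as given below, so its SE and p-values do not measure how it would vary over further experiments. The median difference of log2 intensity was 2.17, with a range of 0.30 (Ckap5) to 3.23 (Anln), while the median over all genes was -0.08. The difference was at least 1 for 35 genes and at least 2 for 24, a size that 0.512% of all genes reached. In 28 of the 38, every TM+ array lay above every TM- array, which held for 2.2% of all genes. Anln, Kif11 and Top2a exceeded 3. In sTM-treated cultures 36 of the 38 genes were called higher (background 11.6%), with a median of 1.92, and in untreated cultures also 36 (background 13.2%), with a median of 2.49. Ckap5 was called in neither (adjusted p = 0.208 and 0.0657, limma), Plk4 missed the test in sTM-treated cultures (adjusted p = 0.0533) and Smc4 in untreated cultures (adjusted p = 0.506). In TM- DCs the mean of 30 genes lay below the median of all genes there (6.99) and that of 6 genes below the 25th percentile (5.76). No detection calls were used, and how far such dim values stand above array background is unknown.

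**Figure D1:**
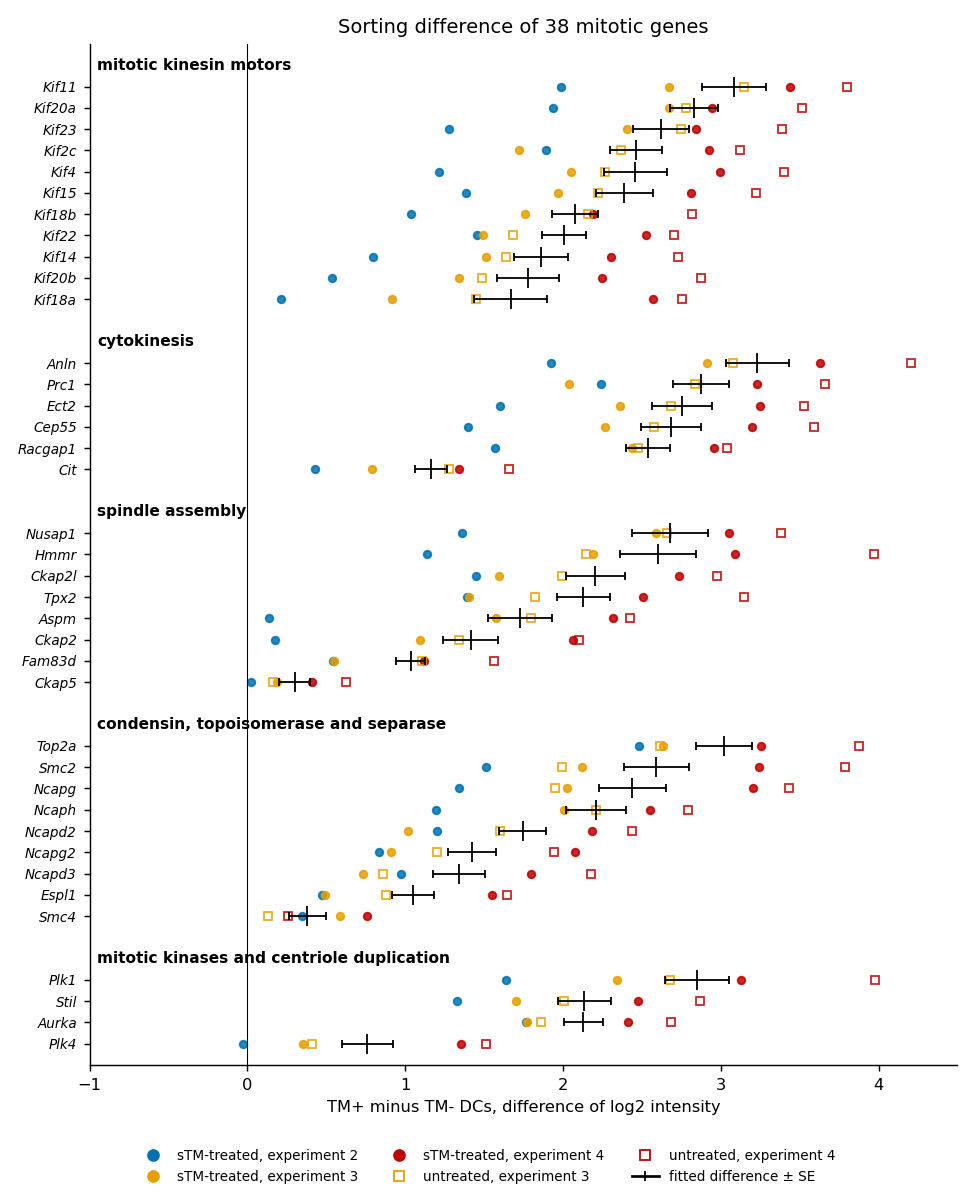
TM+ minus TM- DCs for each of the 38 genes (difference of log2 intensity), by role. Circles are sTM-treated cultures and squares untreated cultures of single experiments (mean of 2 arrays in each fraction), and black bars the fitted difference ± SE over 20 arrays; the circle of experiment 4 lies to the right of that of experiment 2 in all 38 genes, and fitted differences run from 0.30 to 3.23.

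The check of the sort itself was weak on these arrays. Thbd, the gene of thrombomodulin, had log2 intensities of 5.76 to 6.92 in TM+ DCs, against 5.65 to 6.50 in TM- DCs, a difference of 0.24 ± 0.12 (SE, adjusted p = 0.12, limma) that did not pass the test, so the fractions rest on the labels of the surface sort. Other cell types were followed through marker lists, beside a background of 18.6% of all genes called higher in TM+ DCs and 18.7% called lower. Of 12 granulocyte and progenitor markers 9 were higher and 1 (Kit) lower in TM+ DCs, with summed intensities of 2458 to 16280 in TM+ arrays and 1444 to 3592 in TM- arrays. The largest differences were those of S100a9 and S100a8, calprotectin subunits of neutrophils, at 2.16 and 2.15, of Ltf, lactoferrin of their granules, at 1.92, and of Ly6g at 1.35. Of markers of earlier precursors, Cd34, Ms4a3, Elane and Prtn3 were called higher by 0.95, 0.78, 0.51 and 0.35, Kit was lower, and Mpo and Ctsg had no call. The sums did not follow the mitotic genes everywhere: in sTM-treated cultures of experiment 3 the sum was lower in TM+ DCs (2458 and 2575) than in TM- DCs (3259 and 3469), while all 38 mitotic genes were higher in TM+ DCs there, by a median of 1.74. Summed markers of mast cells, basophils and eosinophils ran from 1834 to 5415 in TM+ arrays and from 721.7 to 2891 in TM- arrays, with 3 of 8 called higher. These were Epx, Siglecf and Prg2, at 2.11, 1.95 and 1.51, while Cpa3, Mcpt8, Fcer1a, Ms4a2 and Gata2 had no call. In sTM-treated cultures of experiment 3 this sum too was lower in TM+ DCs (1853 and 1834) than in TM- DCs (2154 and 2891). None of 9 T, B and NK cell markers was called. Of 7 monocyte and macrophage markers 4 were higher and 1 (Cd14, -0.87) lower in TM+ DCs, with sums of 20200 to 30770 in TM+ arrays and 17510 to 26220 in TM- arrays. Of 4 erythroid markers 1 (Tfrc, the transferrin receptor, which other dividing cells also use) was higher, with sums of 374.2 to 1266 in TM+ arrays and 362 to 1185 in TM- arrays. The erythroid sum was 1266 and 1057 in untreated TM+ DCs of experiment 4, against 362 and 390.8 in TM- DCs. It went the other way in sTM-treated cultures of experiment 2, with 746.8 and 743.1 in TM+ DCs, against 1185 and 1116 in TM- DCs. Of 10 DC markers, 7 were higher and 2 (Batf3 and Zbtb46) lower in TM+ DCs, with sums of 19510 to 28090 in TM+ arrays and 15840 to 20680 in TM- arrays. The part of these cell types in the mitotic difference was not tested beyond these values.

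Mitotic kinesin motors were higher in TM+ DCs for 11 of 11 genes, with a median difference of 2.39. Kif11 encodes the plus-end motor Eg5, which slides antiparallel microtubules to separate the spindle poles. In sTM-treated cultures its lowest, median and highest log2 intensity was 7.66, 9.24 and 10.50 in TM+ DCs, against 5.59, 6.57 and 7.10 in TM- DCs. In untreated cultures Kif11 was at 9.39, 9.58, 10.34 and 10.29 in TM+ DCs, against 6.54, 6.14, 6.27 and 6.75 in TM- DCs. No TM+ array fell as low as any TM- array, and the fitted difference was 3.09 ± 0.20 (SE, adjusted p = 5.07e-10). Kif20a (MKLP2), which brings the chromosomal passenger complex to the midzone, had 7.99, 8.87 and 9.80 (lowest, median, highest) in TM+ DCs of sTM-treated cultures, against 5.86, 6.41 and 6.78 in TM- DCs. In untreated cultures its values were 9.002, 8.87, 10.05 and 9.99 in TM+ DCs, against 6.24, 6.08, 6.23 and 6.77 in TM- DCs, so that the fractions were again apart, by 2.83 ± 0.15 (SE, adjusted p = 4.76e-11).

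The smallest kinesin difference was that of Kif18a, a motor that dampens chromosome movements at the plate, at 1.67 ± 0.23 (SE, adjusted p = 8.07e-06). Here the fractions overlapped: TM+ DCs of sTM-treated cultures were at 5.36, 5.94 and 8.02 (lowest, median, highest), against 4.91, 5.09 and 5.67 in TM- DCs. Both TM+ arrays of experiment 2 lay at or below the highest TM- array, and those of experiment 4 stood at 7.52 or more. Untreated cultures gave 6.10, 6.52, 7.97 and 7.74 in TM+ DCs and 4.87, 4.86, 5.19 and 5.01 in TM- DCs. Kif20b (MPP1), a kinesin of late cytokinesis, ran in the same way, with 5.67, 6.52 and 7.79 in sTM-treated TM+ DCs, against 4.84, 5.35 and 5.69 in TM- DCs. In untreated cultures Kif20b was at 6.57, 6.67, 8.12 and 7.95 in TM+ DCs, against 5.14, 5.14, 4.92 and 5.39 in TM- DCs, and the fitted difference was 1.78 ± 0.20 (SE, adjusted p = 4.55e-07). Kif18a and Kif20b were higher in TM+ DCs in 9 of the 10 comparisons of arrays with the same experiment and number, and all other kinesins in 10 of 10. Among those, Kif23 (MKLP1, the motor subunit of centralspindlin) differed by 2.62, the microtubule depolymerase Kif2c (MCAK) by 2.46, the chromokinesins Kif4 and Kif22 by 2.46 and 2.01, Kif15, a motor that assists Eg5, by 2.39, Kif18b by 2.08 and Kif14, a partner of citron kinase, by 1.86. Kif14 and Top2a each had another, dimmer cluster that did not pass the test. Its means were 3.90 in TM+ DCs and 3.96 in TM- DCs for Kif14 (difference -0.06 ± 0.07, SE), and 3.81 and 3.50 for Top2a (0.32 ± 0.16, SE).

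All 6 genes of cytokinesis were higher in TM+ DCs, with a median of 2.72. Anln encodes anillin, which ties actin, myosin and septins together in the contractile ring. Its lowest, median and highest values in sTM-treated cultures were 7.74, 9.27 and 9.99 in TM+ DCs, against 5.54, 6.25 and 6.65 in TM- DCs. In untreated cultures Anln was at 9.16, 9.15, 9.83 and 9.80 in TM+ DCs, against 6.27, 5.88, 5.27 and 5.96 in TM- DCs. With 3.23 ± 0.20 (SE, adjusted p = 2.32e-10), or 9.40-fold, it had the largest difference of the 38 genes. Prc1, which bundles the antiparallel microtubules of the midzone, was at 7.55, 8.68 and 9.77 in TM+ DCs of sTM-treated cultures, against 5.31, 6.34 and 7.02 in TM- DCs. Untreated cultures had 8.88, 8.88, 9.74 and 9.65 in TM+ DCs, against 5.92, 6.17, 5.86 and 6.21 in TM- DCs, and the fitted difference was 2.88 ± 0.18 (SE, adjusted p = 2.23e-10). Ect2, the exchange factor that activates RhoA at the furrow, and Racgap1, its partner in centralspindlin, differed by 2.75 and 2.54, and Cep55, which recruits the abscission machinery, by 2.69. Cit, citron kinase of the midbody, moved least, with 7.02, 7.51 and 8.13 in TM+ DCs of sTM-treated cultures, against 6.42, 6.72 and 6.82 in TM- DCs. In untreated cultures Cit was at 7.80, 7.77, 8.34 and 8.40 in TM+ DCs, against 6.45, 6.56, 6.57 and 6.86 in TM- DCs. Its difference was 1.16 ± 0.10 (SE, adjusted p = 2.06e-08), and the fractions did not overlap.

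**Figure D2:**
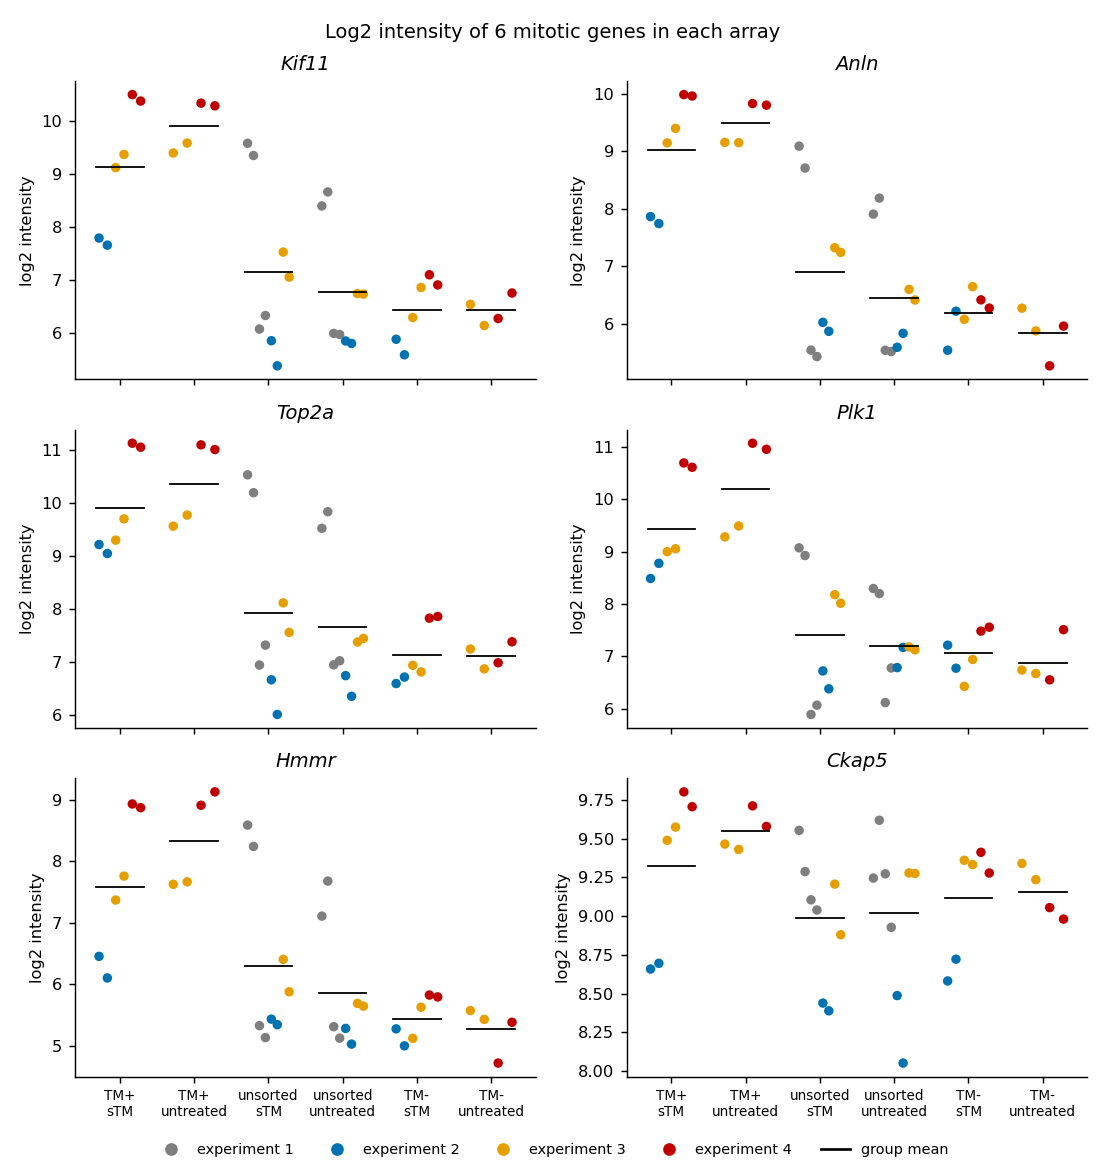
Log2 intensity of Kif11, Anln, Top2a, Plk1, Hmmr and Ckap5 in each of the 36 arrays (vertical axes, 1 range per gene), by group and coloured by experiment; black lines are group means. Kif11 lies between 7.66 and 10.50 in TM+ arrays and between 5.59 and 7.10 in TM- arrays, while the fractions overlap for Ckap5.

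The 8 spindle assembly genes were all called higher in TM+ DCs (median 1.93), and they ranged more widely than the motors. Nusap1, a microtubule bundler at the chromosomes, had 7.45, 9.47 and 10.74 (lowest, median, highest) in TM+ DCs of sTM-treated cultures, against 5.95, 6.88 and 7.81 in TM- DCs. In untreated cultures it was at 9.49, 9.59, 10.62 and 10.66 in TM+ DCs, against 7.03, 6.73, 6.99 and 7.53 in TM- DCs. The fitted difference was 2.68 ± 0.24 (SE, adjusted p = 2.71e-08). Within each experiment the fractions of Nusap1 were apart, and the overlap came from setting TM+ DCs of experiment 2 against TM- DCs of experiment 4. Hmmr, a protein of the spindle poles also known as the hyaluronan receptor RHAMM, had 6.10, 7.56 and 8.93 in TM+ DCs of sTM-treated cultures, against 4.998, 5.45 and 5.82 in TM- DCs. Untreated cultures had 7.62, 7.67, 8.91 and 9.13 in TM+ DCs and 5.57, 5.43, 4.72 and 5.38 in TM- DCs, with a fitted difference of 2.60 ± 0.24 (SE, adjusted p = 4.40e-08). Ckap2l and Tpx2, the activator of Aurora A at the spindle, differed by 2.21 and 2.13, Aspm, which focuses the spindle poles, by 1.73, and Fam83d, which brings casein kinase 1 to the spindle, by 1.03.

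Ckap2, a microtubule stabilizer, was higher in 9 of 10 comparisons of arrays, by 1.42 ± 0.17 (SE, adjusted p = 1.61e-06). Its values in sTM-treated cultures were 6.52, 7.15 and 8.39 in TM+ DCs, against 5.79, 6.31 and 6.55 in TM- DCs, with the overlap in experiment 2. In untreated cultures it was at 7.32, 7.19, 8.37 and 7.84 in TM+ DCs, against 5.84, 5.99, 6.06 and 5.96 in TM- DCs. Ckap5 (chTOG) stood apart from the rest. It is a microtubule polymerase that cells also use outside mitosis, and its intensities were 8.66, 9.53 and 9.80 in TM+ DCs of sTM-treated cultures, against 8.58, 9.31 and 9.41 in TM- DCs. Untreated cultures gave 9.46, 9.43, 9.71 and 9.58 in TM+ DCs, against 9.34, 9.24, 9.05 and 8.98 in TM- DCs. The difference of 0.30 ± 0.10 (SE, adjusted p = 0.0185) was lost without experiment 4 (0.13) and with the array of replicate 2 of untreated TM- DCs of experiment 4 left out.

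Genes that shape and separate chromosomes rose in TM+ DCs in 9 of 9 cases, with a median of 1.74, and held both very large and very small differences. Top2a, topoisomerase II alpha, was at 9.05, 9.50 and 11.13 in TM+ DCs of sTM-treated cultures, against 6.59, 6.87 and 7.86 in TM- DCs. In untreated cultures it was at 9.56, 9.77, 11.10 and 11.01 in TM+ DCs, against 7.24, 6.86, 6.98 and 7.38 in TM- DCs. The fractions were far apart in every experiment, by 3.02 ± 0.18 (SE, adjusted p = 1.29e-10). Smc2 and Smc4 are the ATPase arms of the condensin ring and work as a pair in both condensins. Smc2 had 7.46, 8.53 and 9.76 in TM+ DCs of sTM-treated cultures, against 5.95, 6.35 and 6.54 in TM- DCs, and in untreated cultures 8.29, 8.55, 9.81 and 9.72 in TM+ DCs, against 6.48, 6.36, 5.83 and 6.13 in TM- DCs. Its difference was 2.59 ± 0.21 (SE, adjusted p = 6.37e-09).

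For Smc4 the difference was 0.38 ± 0.12 (SE, adjusted p = 0.0139). Its lowest, median and highest values in sTM-treated cultures were 9.36, 10.26 and 10.67 in TM+ DCs, against 9.02, 9.56 and 10.06 in TM- DCs, and in untreated cultures it was at 10.02, 10.05, 10.23 and 10.11 in TM+ DCs, against 10.02, 9.78, 10.09 and 9.73 in TM- DCs. The fractions overlapped for Smc4 and not for Smc2, and the call of Smc4 was lost without experiment 4 (0.30). Of the subunits particular to condensin I, Ncapg, Ncaph and Ncapd2 differed by 2.44, 2.21 and 1.74, and of those of condensin II, Ncapg2 and Ncapd3 by 1.42 and 1.34. Espl1, separase, differed by 1.05.

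Plk1, the kinase that drives centrosome maturation, spindle assembly and mitotic exit, had the largest difference among the 4 kinases and centriole genes, at 2.85 ± 0.20 (SE, adjusted p = 1.17e-09). It was at 8.49, 9.03 and 10.69 in TM+ DCs of sTM-treated cultures, against 6.43, 7.08 and 7.56 in TM- DCs. Untreated cultures had 9.28, 9.49, 11.07 and 10.95 in TM+ DCs and 6.74, 6.67, 6.55 and 7.51 in TM- DCs, so that no TM+ array came down to the TM- range. Stil, needed to assemble new centrioles, was at 6.76, 7.48 and 8.80 in TM+ DCs of sTM-treated cultures, against 5.16, 5.87 and 6.29 in TM- DCs. In untreated cultures Stil had 7.53, 7.67, 8.88 and 8.55 in TM+ DCs, against 5.75, 5.44, 5.90 and 5.78 in TM- DCs. Its difference of 2.14 ± 0.17 (SE, adjusted p = 4.88e-09) was close to that of Aurka, the Aurora A kinase of the spindle poles, at 2.13. Plk4, the kinase that starts centriole duplication and the partner of Stil, differed by only 0.76 ± 0.16 (SE, adjusted p = 0.000936). Its values were 7.38, 8.56 and 9.41 in TM+ DCs of sTM-treated cultures, against 7.61, 7.99 and 8.23 in TM- DCs, and the lowest of all sorted arrays was a TM+ array of experiment 2. Untreated cultures gave 8.49, 8.47, 9.57 and 9.36 in TM+ DCs and 8.005, 8.13, 8.03 and 7.88 in TM- DCs. Without experiment 4 Plk4 differed by 0.29 and was not called.

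The level of the mitotic genes in TM+ DCs depended on the experiment. The median over the 38 genes in a TM+ array of sTM-treated cultures was 7.55 and 7.48 in experiment 2, 8.45 and 8.60 in experiment 3, and 9.68 and 9.39 in experiment 4. Untreated TM+ DCs had 8.52 and 8.63 in experiment 3 and 9.64 and 9.53 in experiment 4. The TM- arrays of all 3 experiments stayed between 6.15 and 6.74, and the median of all genes between 6.92 and 7.15. Arrays of 1 group and experiment differed little (SD 0.15 for the sorted arrays). All 38 genes were ordered experiment 2, 3, 4 from low to high in TM+ DCs of sTM-treated cultures, and all 38 had more in experiment 4 than in experiment 3 in untreated TM+ DCs. In TM- DCs the same orders held for 19 and 25 genes.

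**Figure D3:**
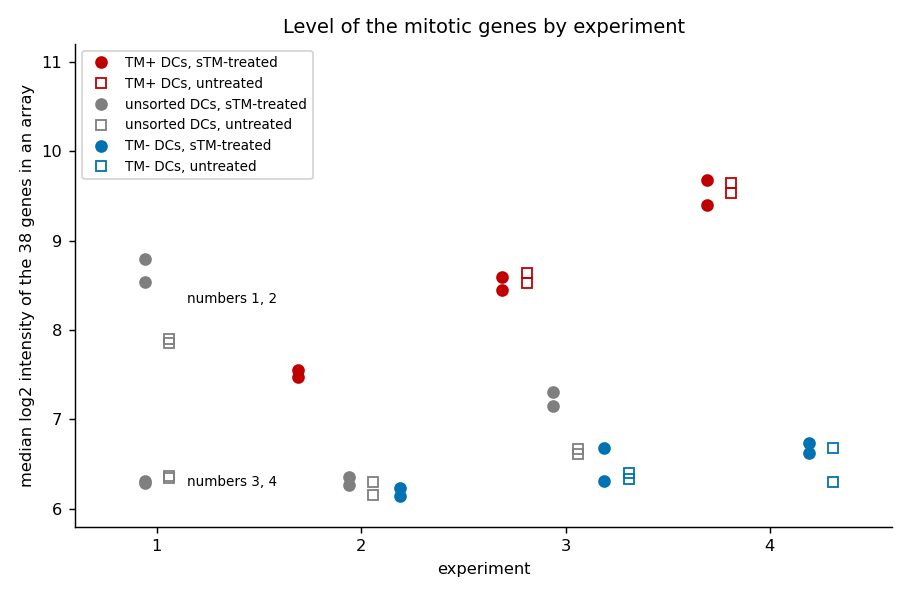
Median log2 intensity of the 38 mitotic genes in each of the 36 arrays (vertical axis) by experiment (horizontal axis); colours give the fraction, filled circles sTM-treated and open squares untreated cultures. TM+ arrays go up by experiment, TM- arrays stay between 6.15 and 6.74, and the unsorted arrays of experiment 1 lie in 2 separate groups by replicate number.

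The sorting difference followed the same order, with a median over the 38 genes of 1.30, 1.74 and 2.56 in sTM-treated cultures of experiments 2, 3 and 4, and of 2.00 and 2.93 in untreated cultures of experiments 3 and 4. Within the sTM-treated cultures 30, 34 and 38 of the genes were called higher in TM+ DCs in experiments 2, 3 and 4, against 10.8%, 4.83% and 15.6% of all genes. The change of the difference between experiments was tested in the 12 sorted arrays of sTM-treated cultures, a test added after the values had been seen. Between experiments 4 and 2 it was larger in experiment 4 for 34 genes past the test (background 5.95%), between 4 and 3 for 16 (background 4.27%) and between 3 and 2 for 6 (background 2.7%). Kif18a changed most, with a sorting difference of 2.57 in experiment 4 and 0.22 in experiment 2, followed by Aspm with 2.32 in experiment 4 and 0.14 in experiment 2. Aspm and Kif18a were thus close to equal in both fractions of experiment 2. Top2a changed less, with 3.26 in experiment 4 and 2.48 in experiment 2 (adjusted p = 0.032, limma). Ckap5, Fam83d, Ncapd3 and Smc4 did not pass the test of experiment 4 against 2. The summed granulocyte and progenitor markers in TM+ DCs also differed by experiment, though not in the same order: in sTM-treated cultures they were 3828 and 3846 in experiment 2, 2458 and 2575 in experiment 3, and 9148 and 9527 in experiment 4. The sources used here do not say how the experiments differed otherwise.

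**Figure D4:**
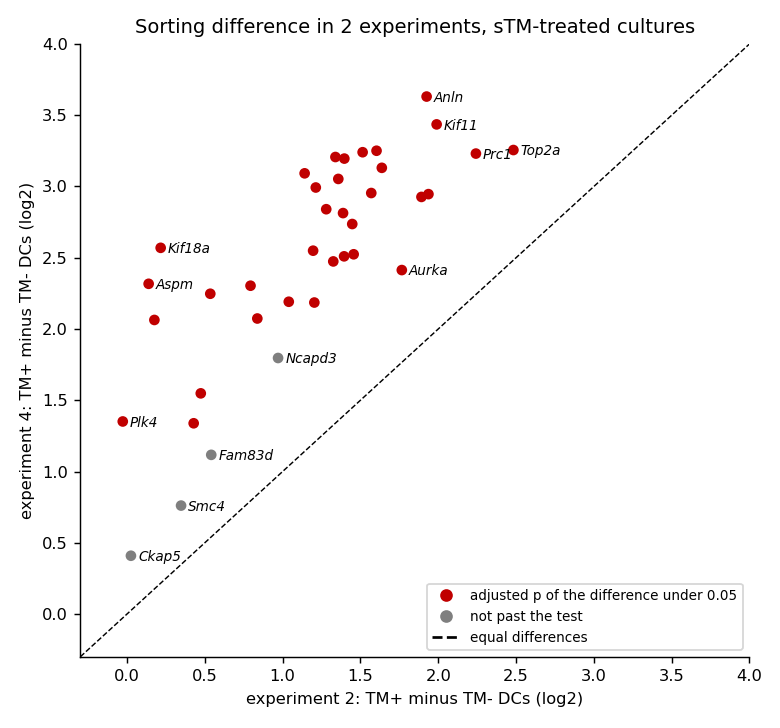
TM+ minus TM- DCs (difference of log2 intensity) in sTM-treated cultures of experiment 4 (vertical axis) against experiment 2 (horizontal axis), 1 point per gene, each from 2 arrays in a fraction and experiment. All 38 points lie above the line of equal differences, and the 34 in red passed the test of the change.

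Treatment with sTM did not separate the mitotic genes in sorted DCs. None of the 38 was called for the mean effect of treatment (background 0.015%; 0 at an unadjusted p under 0.05), with a median of -0.04. In TM+ DCs the fitted median of sTM minus untreated was -0.34 with 0 called (background 0.853%). At an unadjusted p under 0.05, 5 were lower, against 4.75% of all genes. The sign was negative in 37 of the 38, against 55.4% of all genes. But this fit sets experiment 2, which was low and had sTM-treated sorted DCs only, among the treated. Within experiments 3 and 4 the median in TM+ DCs was -0.14 and -0.07, against -0.06 and -0.003 over all genes. The sign was positive there in 7 and 15 of the 38, against 36.54% and 49.25% of all genes. In TM- DCs the median of the 38 genes was 0.25 in the fit (0.03 over all genes), with 0 called (background 0%). The sign was positive in 36 of the 38, against 59.7% of all genes. By experiment the median was 0.10 in experiment 3 and 0.25 in experiment 4, against 0.09 and -0.02 over all genes. Positive signs numbered 27 in experiment 3 (66.1% of all genes) and 35 in experiment 4 (44.5% of all genes). The interaction of sorting and treatment had 0 calls among the 38 (background 0.01%; 7 lower at an unadjusted p under 0.05, against 3.58% of all genes), with a negative sign in 37, against 60.5% of all genes, and a median of -0.61, or -0.32 without experiment 2. The lowest p in the interaction was that of Fam83d (-0.60, adjusted p = 0.412, limma).

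In unsorted DCs no mitotic gene was called for treatment in the fit with experiment as the block, which did not pair arrays by number. Of the 38 genes 36 had a positive difference, against 53.9% of all genes, with a median of 0.34. Of these, 0 passed the test (background 0%). At an unadjusted p under 0.05, 2 were higher, Cit and Ckap2, against 1.95% of all genes. The arrays of experiment 1 fell into 2 states that the labels do not name, and the fit did not hold them apart. Within a group and experiment, the SD of the median over the 38 genes was 0.89 in unsorted arrays. Such a spread limits which differences the test can call. Numbers 1 and 2 had a median over the 38 genes of 8.79 and 8.54 with sTM, against 7.90 and 7.86 untreated, and numbers 3 and 4 had 6.29 and 6.31 with sTM, against 6.34 and 6.37 untreated. Both numbers 1 and 2 lay above both numbers 3 and 4 for 38 genes in sTM-treated and for 37 in untreated cultures. Summed granulocyte and progenitor markers were also higher in numbers 1 and 2 (5622 and 5782 with sTM, 3154 and 3235 untreated) than in numbers 3 and 4 (2086 and 2099 with sTM, 1891 and 1951 untreated), and so were erythroid sums (1239 to 2243 in numbers 1 and 2, 532.3 to 685.8 in numbers 3 and 4) and sums of mast cell, basophil and eosinophil markers (2351 to 3200 in numbers 1 and 2, 1189 to 1303 in numbers 3 and 4). The erythroid sum includes Tfrc, which other dividing cells also use, so it does not measure erythroid cells alone. The part of these cell types was not tested.

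The difference by treatment rested on some of these cultures. Its median over the 38 genes was 0.72 in numbers 1 and 2 of experiment 1, with 37 positive (56.1% of all genes). It was 0.47 in experiment 3, with 34 positive (63.6% of all genes). It was 0.05 in numbers 3 and 4 of experiment 1, with 22 positive (43.0% of all genes), and 0.04 in experiment 2, with 23 positive (50.9% of all genes). Kif2c, at 1.28, had the largest difference in numbers 1 and 2. Kif11 may serve as an example: numbers 1 and 2 were at 9.58 and 9.35 with sTM, against 8.39 and 8.66 untreated, numbers 3 and 4 at 6.07 and 6.33 with sTM, against 5.99 and 5.97 untreated. With numbers 3 and 4 of experiment 1 left out, which was tried after the values had been seen, Cit and Ncaph passed the test, as did 1.16% of all genes. In experiment 1 the sTM-treated and untreated arrays of the same number deviated together (correlations of 0.564 to 0.746). With that experiment divided by state into 2 random blocks, also tried after the values had been seen, Cit passed, as did 0.221% of all genes. That fit did not pair arrays by number. With the number as the random block instead, 0 of the 38 genes passed, as did 0.0201% of all genes.

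Sorted and unsorted DCs of the same experiments could be set side by side in sTM-treated cultures of experiments 2 and 3. The unsorted DCs lay nearer to TM- than to TM+ DCs in the median over the 38 genes. The paper reports TM+ DCs as a minority of such cultures, so unsorted DCs hold mostly TM- DCs. That nearness is thus no separate finding. TM+ DCs were called higher than unsorted DCs in 29 of the 38 genes (background 2.62%), with a median of 1.16. Unsorted DCs were called higher than TM- DCs in 0 genes (background 0.527%; 12 at an unadjusted p under 0.05, against 4.32% of all genes), with a median of 0.33. Kif20a, Kif22 and Kif2c came closest, with 0.88, 0.50 and 0.64 (adjusted p = 0.051, 0.0672 and 0.0793, limma). By experiment the median of unsorted minus TM- DCs was 0.04 in experiment 2 and 0.58 in experiment 3. This count of 0 became 17 without experiment 2, against 2.59% of all genes, and 18 with array weights, against 4.63%. The count of TM+ against unsorted DCs became 4 with no experiment term, against 0.316% of all genes. The mean of the unsorted arrays lay between those of the fractions for 20 genes in experiment 2 and for 34 in experiment 3, and for 34 in untreated cultures of experiment 3. These comparisons share their unsorted arrays.

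Genes with related roles were followed in 8 further lists. For all of these lists the background was 18.6% of all genes called higher in TM+ DCs and 18.7% called lower. All 4 genes of the chromosomal passenger complex were higher in TM+ DCs, with Aurkb, its kinase, at 1.96, Cdca8 (borealin) at 1.84, Birc5 (survivin) at 1.58 and Incenp at 1.20. Of the augmin and gamma-tubulin genes, which nucleate microtubules, 12 of 14 were higher, with a median of 0.53, led by Haus6 at 1.19. Among cell cycle transcription regulators 11 of 19 were higher and 1 (Lin37) lower, with a median of 0.27. Foxm1, the forkhead factor of the G2 and M phase programme, differed by 2.10, the pocket protein Rbl1 by 1.42 and the atypical factors E2f8 and E2f7 by 1.18 and 1.03. Of 17 genes of mitotic exit 6 were higher and 1 (Anapc7) lower, with a median of 0.16. The E2 enzyme Ube2c of the anaphase-promoting complex and its activator Cdc20 differed by 2.09 and 1.69, the securin Pttg1 by 0.98 and the subunit Anapc5 by 0.95.

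Cohesin and the other topoisomerases had smaller values than most condensin subunits and Top2a, with no test of that contrast. The cohesin list also held Smc5, Smc6 and Smchd1, related proteins that are not part of cohesin. In this list 6 of 13 genes were higher and 1 (Mau2) lower, with a median of 0.17. The largest differences were those of Pds5b at 0.73, Smc1a and Smchd1 at 0.72 each and Smc3 at 0.46. Top1mt, Top2b and Top3a differed by 0.69, 0.61 and 0.35. Of 13 septins and partners of centralspindlin and abscission 5 were higher, led by Septin6 at 1.03 and Septin2 at 0.69, with a median of 0.11. The list of other kinesins and kinesin light chains holds mainly cargo carriers, beside the microtubule depolymerases Kif2a and Kif2b, which had no call. Of its 31 measured genes 1, the centriole kinesin Kif24, was higher at 0.97 and 10 were lower (background 18.7% lower), with a median of -0.10. Kif3c, Kif5c and Kif21b differed by -1.01, -0.88 and -0.54.

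**Figure D5:**
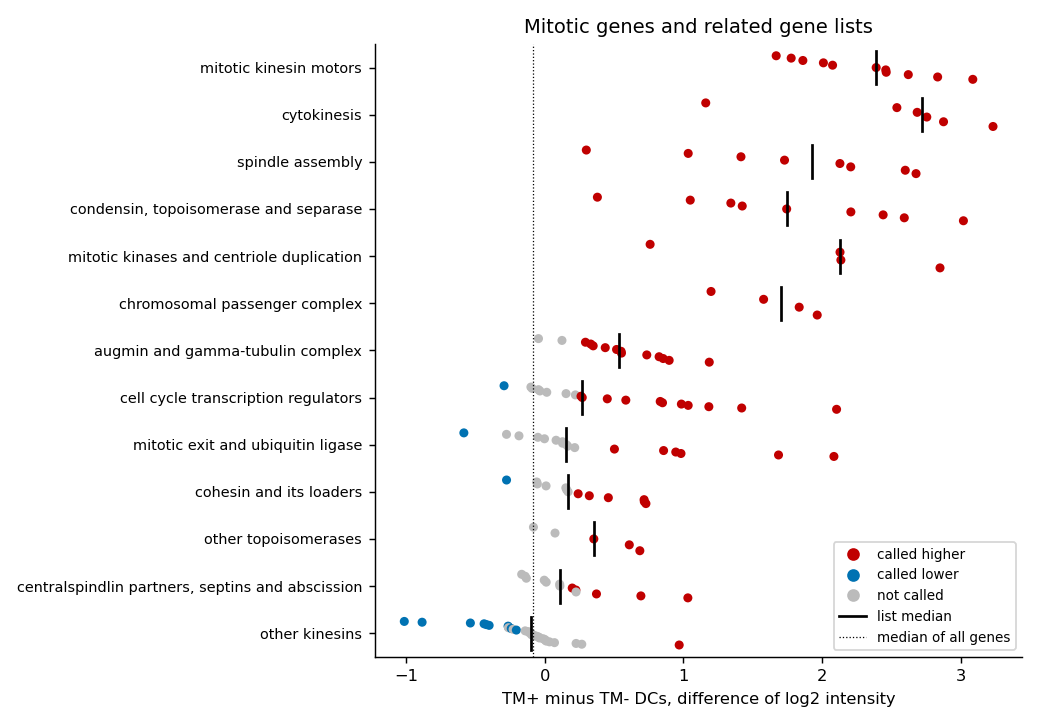
TM+ minus TM- DCs (difference of log2 intensity, horizontal axis) for the 5 groups of mitotic genes and 8 related lists, 1 point per gene; red was called higher, blue called lower and grey not called. Black bars are list medians, from 2.72 for cytokinesis to -0.10 for other kinesins, and the dotted line is the median of all genes.

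The members with a CHR match had a median sorting difference of 2.39 (29 measured genes, 0.30 to 3.23) and those without a median of 1.90 (6 genes, 0.76 to 2.68). Ckap5, with the smallest difference, held both a CHR match and 2 CCAAT matches in the promoter printed above, and Nusap1, with 2.68, held neither. No test was made of this difference between the genes with and without a match.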

How the data were processed

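The authors hybridized 36 arrays, corrected the background, normalized and summarized probes with RMA, and deposited intensity values per transcript cluster on a linear scale. The sources used here do not say whether that was done over all arrays at once. Deposited intensities were analysed as log2 values, unfiltered and without rescaling. The annotation of the platform gave exactly 1 symbol to 21789 clusters, several to 1621 and none to 12146. Where a symbol had several clusters, the brightest on average was taken.

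limma 3.58.1 (with statmod 1.5.0, under R 4.3.3) was run on 20 sorted arrays (sorting, treatment and interaction), 16 unsorted arrays, and 12 sTM-treated arrays of experiments 2 and 3, with experiment as a random block (correlations of 0.396, 0.375 and 0.411) and p-values adjusted over all 19938 genes. The sorting difference is the mean of those in sTM-treated and untreated cultures. The fit was first tested on simulated data. Arrays of 1 group correlated at 0.926 to 0.997; precision is limited by how many arrays there were. Figures used Python 3.11.15 and matplotlib 3.10.9.

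Genes given with values of every array or group were, per role, the largest 2 and the smallest 1 sorting differences and those that did not agree in all 10 comparisons of arrays; from other lists, up to 4 with the largest differences past the test. The remaining members are given by their difference alone. Members and lists were chosen with earlier results of these data known. Alternatives were other experiment terms, blocks by replicate number, filters, scalings, array weights, other clusters, and leaving out arrays and experiments, with the correlation of refits estimated on every 10th gene.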

Additional observations from a re-analysis of the deposited data

Results flagged for a closer look

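Of 108 tests for an outlying array, on the median of the 38 genes and on 17 single genes in 6 groups, 1 stood out: Cit was at 6.42 in the TM- array of replicate 2 of sTM-treated cultures of experiment 2, against 6.69 to 6.82 in the other 5 arrays. Chance gives about 1 such array in 20 groups. The TM+ minus TM- difference was larger in experiment 4 than in experiment 2 for 34 genes (background 5.95%). It was larger in experiment 4 than in experiment 3 for 16 (background 4.27%), and in experiment 3 than in experiment 2 for 6 (background 2.7%). These counts come from a test of the difference itself, added after the values had been seen.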

How the results depend on the processing

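The count of mitotic genes higher in TM+ DCs was 35 to 38 of 38 under the alternatives run (36 with the second cluster of Kif14 and Top2a), and 32 of 32 without members dim in TM- DCs. Leaving out single arrays gave 37 to 38. Ckap5 lost its call with no experiment term, with the 75th percentile as centre and with a random replicate block (37 of 38 called), Smc4 with no experiment term, and Ckap5, Smc4 and Plk4 without experiment 4. Centring moved the median of all genes from -0.08 to -0.20, that of the mitotic genes to 2.06, and the calls over all genes to 2941 higher and 9040 lower, against 3709 and 3729. Array weights gave 5321 higher and 6628 lower, no experiment term 2655 and 2172, and leaving out experiment 4 1477 and 976. Same-numbered sorted arrays had correlations of -0.249 to 0.403, and unsorted ones of experiments 2 and 3 had 0.0257 and 0.133. Unsorted arrays of experiment 1 did deviate together (0.564 to 0.746). The number was no term of the fits reported, so the treatment fit in unsorted DCs leaves out that pairing. Counts over 10 comparisons of same-numbered arrays are descriptions. The blocks changed no other sorting call of this set in the mean over treatments. For TM+ against unsorted DCs the replicate block gave 25 calls (1.49% of all genes). That count fell to 4 with no experiment term (0.316% of all genes). Treatment in sorted DCs had 2 calls with array weights (Anln and Tpx2; 8.89% of all genes) and 0 otherwise. In unsorted DCs it had 2 without numbers 3 and 4 of experiment 1 (1.16%) and 1 with experiment 1 divided by state into 2 random blocks (0.221%), and 0 otherwise. Unsorted DCs exceeded TM- DCs in 4 genes with experiment as a fixed factor (1.17% of all genes), 3 with the filter on dim genes (1.04%), 3 with centring (1.36%), 2 with quantile normalization (0.767%), 18 with array weights (4.63%), 17 without experiment 2 (2.59%) and 0 to 2 with single arrays left out. The causes were not tested. CCAAT matches on the gene strand only were found in 14 genes, against 24. Dim signals limit how large a difference the arrays can show.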
